A study of Mus musculus with 12 samples.

Results

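Integrins are transmembrane receptors that hold cells to the extracellular matrix, and each is a dimer of an alpha and a beta chain. The alpha chain mainly sets which matrix protein is bound, the beta chain connects the receptor to the actin cytoskeleton, and a chain without a partner is poorly delivered to the cell surface. Mesenchymal stem cells, which are stromal cells, use integrins to spread on a surface, and the beta-1 chain (CD29) is among the surface markers by which they are recognised. The genes described here are 10 integrin subunits, chosen by gene ID out of the 56748 gene IDs in the deposited tables. They comprise the beta chains Itgb1, Itgb3 and Itgb5, the alpha chains of fibronectin and vitronectin receptors, Itga5 and Itgav, the alpha chains of collagen receptors, Itga1, Itga2 and Itga11, and the alpha chains of laminin receptors, Itga3 and Itga6. All 10 of the 10 passed the filter on low counts, which left 14338 genes for testing.

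RNA was sequenced from mesenchymal stem cells isolated from mouse adipose tissue, in 4 groups of 3 libraries. These were 3D spheroids at 24 h, 2D single cells at 24 h, 3D spheroids at 0 h and 2D single cells at 0 h. The deposited column names call the 2D samples attached. Per the labels, all 4 groups were kept in DMEM with fetal bovine serum and antibiotics, and no genotype, strain or age is given. The labels do not say how long spheroids had been forming at 0 h, and whether the libraries of a group came from separate cultures is not given, so p-values measure only how libraries of a group vary, and that variation may be technical. Library totals lay between 10182600 and 17109600 expected counts, and no 2 libraries of a group agreed within sampling noise. Values are CPM (counts relative to the library total, adjusted with edgeR's TMM factors) unless TPM, which also corrects for transcript length, is named. Fold changes are edgeR log2 fold changes, and calls needed an adjusted p (Benjamini-Hochberg, over all tested genes) under 0.05. Itgb1, which is also among the subunits described here, was present in all 12 libraries. The presence of Itgb1 alone does not test whether the cells were mesenchymal stem cells. Other markers of these or of other cell types were not examined, because the tables used here do not pair the gene IDs with names. In bulk RNA, fewer cells of a type and less RNA per cell cannot be told apart.

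At 24 h most integrin subunits were lower in spheroids than in 2D cells, and Itgb3 was the exception. Of the 10 subunits, 8 were lower, 1 (Itgb3) was higher and 1 (Itga6) did not pass, where 22.8% of all tested genes were lower and 19.6% were higher. The median log2 fold change was -1.25 over the 10 subunits and -0.00 over all genes tested. At 0 h the cultures differed in fewer subunits: Itga2 was higher, Itga5, Itgb3 and Itga6 were lower, and 6 did not pass. The background at 0 h was 23.1% of genes higher and 22.7% lower, so the 4 calls among 10 subunits stand near that share, and the medians were 0.03 over the subunits and 0.02 over all genes. This 0 h split depended on scaling. It was 3 higher and 3 lower with library totals or the upper quartile in place of TMM, and limma on the TPM values gave 2 in each direction. Over all genes 27.3% were higher and 18.8% lower with library totals, and 28.1% and 18.2% with the upper quartile. With limma on log2(TPM + 1) these shares were 25.4% and 15.5%. Without replicate 3 of 3D 0 h, 0 subunits were higher and 2 lower, against 19.3% of genes in each direction.

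Over 24 h, Itgb1, Itgav, Itga1 and Itga11 fell in spheroids and rose in 2D cells. In spheroids 5 subunits fell (Itgb1, Itgav, Itga1, Itga2 and Itga11), 0 rose and 5 did not pass, against backgrounds of 24.7% of genes falling and 23.8% rising. With limma on log2(TPM + 1) 3 fell and 0 rose, against 20% of genes falling and 24.4% rising. In 2D cells 6 rose (Itgb1, Itgb5, Itgav, Itga1, Itga11 and Itga3), 2 fell (Itgb3 and Itga5) and 2 did not pass, against 17.4% of genes rising and 17% falling. The median log2 change was -0.41 in spheroids and 0.69 in 2D cells, where all genes had -0.00 and 0.02. The comparisons between cultures and those over time share libraries, so they are not separate evidence.

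**Figure D1:**
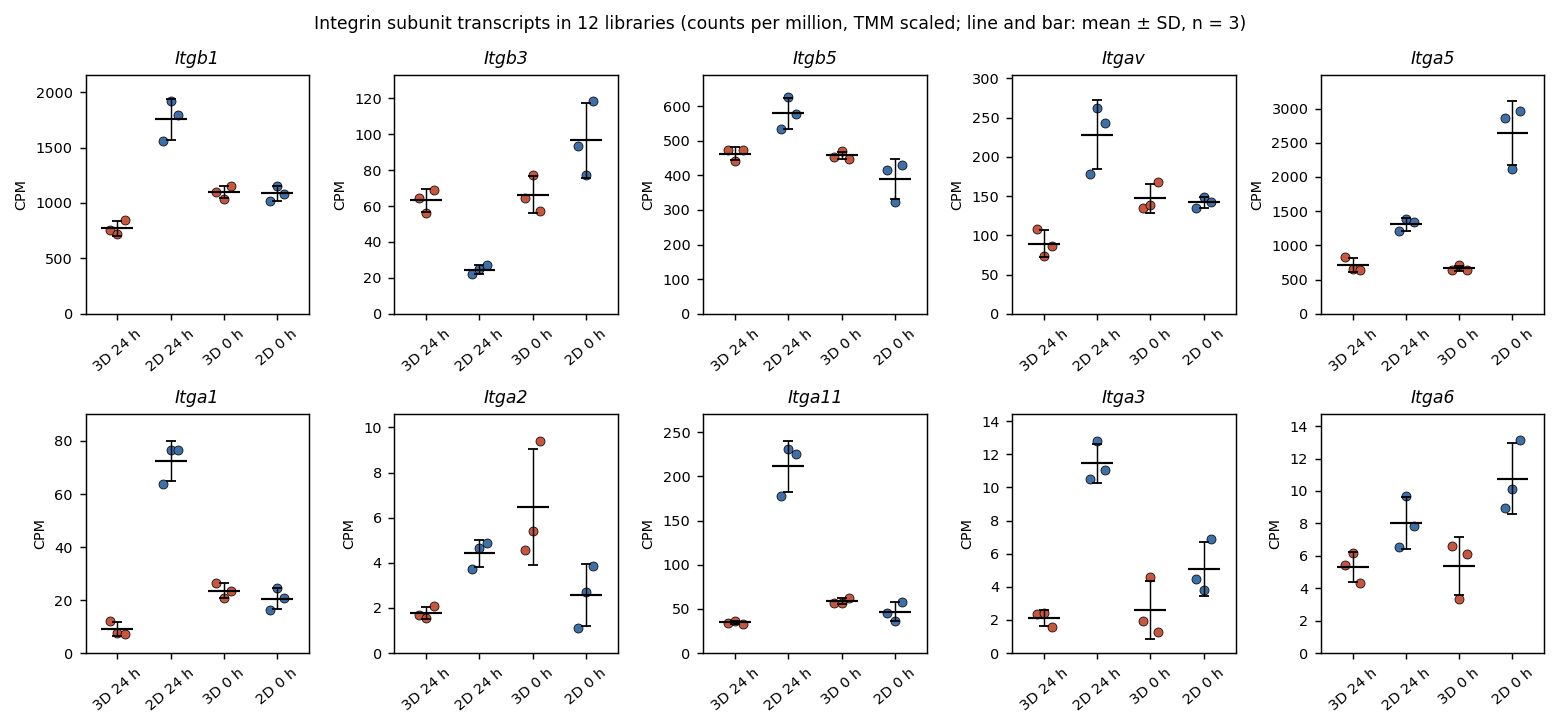
CPM of each subunit in the 12 libraries (points; red 3D, blue 2D), with the group mean and SD (line and bar, n = 3); each panel has its own linear axis from 0. The 2D 24 h libraries stand highest for Itgb1, Itgav, Itga1, Itga11 and Itga3 and lowest for Itgb3, and the 2D 0 h libraries stand far above the rest for Itga5.

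The beta-1 chain is the shared partner of most alpha chains described here. Itgb1 (ENSMUSG00000025809) had 754, 716 and 849 CPM in the 3D 24 h libraries, against 1557, 1917 and 1792 CPM in the 2D 24 h libraries. At 0 h its values were 1103, 1040.0 and 1152 CPM in spheroids, against 1018, 1157 and 1084 CPM in 2D cells. The cultures were thus fully apart at 24 h and interleaved at 0 h. The log2 fold change of 3D over 2D was -1.18 ± 0.10 (SE, edgeR's adjusted p = 4.2e-08) at 24 h and 0.02 (95% interval -0.19 to 0.22, edgeR's adjusted p = 0.91) at 0 h. Over 24 h Itgb1 fell in spheroids, with a log2 change of -0.51 ± 0.10 (SE, edgeR's adjusted p = 0.00043), and rose in 2D cells, with 0.69 ± 0.10 (SE, adjusted p = 6.8e-05).

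The beta-3 chain, which pairs with the alpha-v chain as a vitronectin receptor, ran the opposite way. Itgb3 (ENSMUSG00000020689) had 64.4, 56.3 and 68.7 CPM in spheroids at 24 h, against 21.9, 24.7 and 27.3 CPM in 2D cells. At 0 h it had 64.4, 77.3 and 57.0 CPM in spheroids, against 93.7, 77.4 and 119 CPM in 2D cells. Spheroids were above 2D cells in every 24 h library and below them in every 0 h library by CPM, although the closest 0 h libraries nearly met and the 0 h TPM ranges overlapped. Its log2 fold change of 3D over 2D was 1.36 ± 0.16 (SE, edgeR's adjusted p = 2.9e-06) at 24 h, a 2.56-fold difference, and -0.54 ± 0.15 (SE, adjusted p = 0.0085) at 0 h. The 0 h call was lost with limma on TPM (adjusted p = 0.15), without replicate 3 of 2D 0 h (log2 fold change -0.33, adjusted p = 0.087) and without replicate 3 of 3D 0 h (-0.45, adjusted p = 0.053). Over 24 h the log2 change of Itgb3 in spheroids was -0.07 (95% interval -0.40 to 0.26, edgeR's adjusted p = 0.73). In 2D cells it fell 3.92-fold, with a log2 change of -1.97 ± 0.16 (SE, edgeR's adjusted p = 2.4e-07).

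Itgb5 encodes the beta-5 chain, another partner of alpha-v for vitronectin, and its 24 h difference was the smallest of the 3 beta chains. Itgb5 (ENSMUSG00000022817) had 475, 441 and 473 CPM in spheroids at 24 h, against 534, 625 and 578 CPM in 2D cells. Its 0 h values were 455, 470.2 and 449 CPM in spheroids, against 416, 323 and 430.1 CPM in 2D cells. Spheroid libraries were much alike at both times, while 2D cells were the lowest group at 0 h and the highest at 24 h. By TPM the 24 h ranges of the cultures overlapped. The 24 h difference of -0.32 ± 0.11 (SE, edgeR's adjusted p = 0.022) was lost in 12 of 20 alternatives, among them scaling by library totals (-0.20, adjusted p = 0.13). It was also lost without any 1 of the 3D 24 h libraries, replicate 2 or 3 of 2D 24 h, replicate 1 or 2 of 3D 0 h, or replicate 1 of 2D 0 h, at adjusted p from 0.054 to 0.18. The 0 h difference was 0.23 (95% interval 0.0054 to 0.46, edgeR's adjusted p = 0.088). It passed with library totals (adjusted p = 0.014), with the upper quartile (adjusted p = 0.013) and with limma (adjusted p = 0.031 at a pseudocount of 1). Leaving out replicate 3 of 2D 0 h also made it pass (adjusted p = 0.019). Over 24 h the log2 change was 0.02 (95% interval -0.21 to 0.24, edgeR's adjusted p = 0.91) in spheroids, and in 2D cells Itgb5 rose by 0.57 ± 0.11 (SE, edgeR's adjusted p = 0.00075). Expected counts of Itgb5 were not whole in 11 of 12 libraries, those of Itga1 in 11 and those of Itgav in 8, so these 3 levels include reads shared with other genes.

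The alpha-5 chain forms, with beta-1, the main fibronectin receptor, and its gene carried the largest 0 h difference of the 10. Itga5 (ENSMUSG00000000555) had 827, 658 and 646 CPM in spheroids at 24 h, against 1206, 1387 and 1338 CPM in 2D cells. Its 0 h values were 635, 709.7 and 645 CPM in spheroids, against 2859, 2112 and 2971 CPM in 2D cells. Spheroids were lower at both times with no overlap, 1.84-fold at 24 h with a log2 fold change of -0.88 ± 0.13 (SE, edgeR's adjusted p = 2.1e-05) and 3.99-fold at 0 h with -2.0 ± 0.13 (SE, adjusted p = 2.1e-09). Only 2.27% of tested genes had a lower 0 h fold change. Over 24 h its log2 change was 0.10 (95% interval -0.16 to 0.36, edgeR's adjusted p = 0.54) in spheroids, and in 2D cells Itga5 fell by 1.01 ± 0.13 (SE, edgeR's adjusted p = 1.8e-05) on the log2 scale.

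Alpha-v joins several beta chains in receptors for vitronectin and for fibronectin. Itgav (ENSMUSG00000027087) had 107, 73.6 and 86.0 CPM in spheroids at 24 h, against 178, 263 and 243 CPM in 2D cells. At 0 h the values were 135, 139 and 169 CPM in spheroids, against 134, 149 and 143 CPM in 2D cells. The groups were apart at 24 h and overlapped at 0 h, as for Itgb1. The log2 fold change was -1.36 ± 0.15 (SE, edgeR's adjusted p = 1.6e-06) at 24 h and 0.05 (95% interval -0.27 to 0.37, edgeR's adjusted p = 0.79) at 0 h. Over 24 h Itgav fell in spheroids, with a log2 change of -0.73 ± 0.15 (SE, edgeR's adjusted p = 0.00087), and rose in 2D cells, with 0.68 ± 0.15 (SE, adjusted p = 0.0025). The fall in spheroids was lost with limma on the TPM values, at an adjusted p of 0.089 or 0.091 by pseudocount, and the TPM ranges overlapped.

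Itga1 and Itga11, both collagen receptor chains, gave the widest gaps of the 10 between the cultures at 24 h. The alpha-1 chain binds collagens with beta-1 as its partner. Itga1 (ENSMUSG00000042284) had 12.1, 7.75 and 7.18 CPM in spheroids at 24 h, against 63.7, 76.7 and 76.8 CPM in 2D cells. Its 0 h values were 26.3, 20.7 and 23.3 CPM in spheroids, against 16.3, 24.4 and 20.8 CPM in 2D cells. At 24 h every spheroid library lay several-fold below every 2D library, and at 0 h the CPM ranges overlapped. The 0 h TPM ranges did not overlap, at 5.86 to 8.98 TPM in spheroids and 4.96 to 5.8 TPM in 2D cells. The 24 h difference was 7.94-fold, with a log2 fold change of -2.99 ± 0.20 (SE, edgeR's adjusted p = 2.1e-09), and 1.53% of tested genes were lower still. The 0 h difference was 0.19 (95% interval -0.21 to 0.59, edgeR's adjusted p = 0.44). Over 24 h Itga1 fell 2.57-fold in spheroids, a log2 change of -1.36 ± 0.20 (SE, edgeR's adjusted p = 2.3e-05), and rose 3.52-fold in 2D cells, a change of 1.82 ± 0.19 (SE, adjusted p = 2.5e-06).

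The alpha-11 chain is a receptor for fibrillar collagen found mainly on fibroblasts and other mesenchymal cells. Itga11 (ENSMUSG00000032243) had 34.5, 36.4 and 33.0 CPM in spheroids at 24 h, against 178, 231 and 225 CPM in 2D cells. At 0 h it had 56.9, 56.6 and 62.4 CPM in spheroids, against 45.5, 36.8 and 58.0 CPM in 2D cells. The 2D 24 h libraries stood alone above the other 9. At 0 h the CPM ranges of the cultures overlapped and the TPM ranges did not. The 24 h difference was 6.11-fold, with a log2 fold change of -2.61 ± 0.15 (SE, edgeR's adjusted p = 3.9e-10). The 0 h difference was 0.33 (95% interval 0.02 to 0.63, edgeR's adjusted p = 0.079). It passed with library totals (adjusted p = 0.026), the upper quartile (adjusted p = 0.021) or no filter (adjusted p = 0.04). Leaving out replicate 3 of 2D 0 h also made it pass. Over 24 h Itga11 fell by 0.76 ± 0.15 (SE, edgeR's adjusted p = 0.00044) on the log2 scale in spheroids. In 2D cells it rose 4.52-fold, a log2 change of 2.18 ± 0.15 (SE, edgeR's adjusted p = 3e-08), which 1.35% of tested genes exceeded.

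Alpha-2, which also pairs with beta-1 to bind collagen, was scarce. Itga2 (ENSMUSG00000015533) had 1.69, 1.55 and 2.09 CPM in spheroids at 24 h, against 3.72, 4.68 and 4.86 CPM in 2D cells. In the 0 h libraries the values were 4.58, 5.43 and 9.40 CPM in spheroids, against 1.12, 2.70 and 3.86 CPM in 2D cells. The direction thus differed between the times, at 13 to 112 expected counts per library. The log2 fold change of 3D over 2D was -1.31 ± 0.40 (SE, edgeR's adjusted p = 0.014) at 24 h and 1.32 ± 0.39 (SE, adjusted p = 0.0098) at 0 h. The 0 h call was lost without replicate 3 of 3D 0 h, where the log2 fold change was 0.95 with an adjusted p of 0.081. The 24 h call was lost with limma at a pseudocount of 0.1 (adjusted p = 0.09), and the 24 h TPM ranges overlapped. In spheroids Itga2 fell by 1.86 ± 0.40 (SE, edgeR's adjusted p = 0.00096) on the log2 scale over 24 h, a call lost with limma (adjusted p = 0.059 or 0.093), and in 2D cells the change was 0.77 (95% interval -0.05 to 1.59, edgeR's adjusted p = 0.13). The 2D change passed with limma (0.99, adjusted p = 0.027, and 1.73, adjusted p = 0.042, at pseudocounts of 1 and 0.1) and without replicate 3 of 2D 0 h (1.21, adjusted p = 0.038), and it was 0.41 without replicate 1 of 2D 0 h (adjusted p = 0.43).

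The laminin receptor chains were both scarce, Itga3 at 15 to 157 and Itga6 at 45 to 191 expected counts per library. Itga3 (ENSMUSG00000001507), whose product binds laminins with beta-1, had 2.34, 2.45 and 1.57 CPM in spheroids at 24 h, against 10.5, 12.8 and 11.1 CPM in 2D cells. At 0 h it had 1.95, 4.61 and 1.26 CPM in spheroids, against 4.47, 3.80 and 6.90 CPM in 2D cells. The 24 h groups were well apart and the 0 h groups overlapped, since replicate 2 of 3D 0 h lay within the 2D range. The 24 h difference was 5.37-fold, with a log2 fold change of -2.42 ± 0.38 (SE, edgeR's adjusted p = 5.7e-05), and the 0 h difference was -0.93 (95% interval -1.74 to -0.13, edgeR's adjusted p = 0.054). The 0 h difference passed without replicate 2 of 3D 0 h (-1.65, adjusted p = 0.0025) and without replicate 2 of 2D 0 h (-1.11, adjusted p = 0.036). It also passed with DESeq2 (adjusted p = 0.039), limma (adjusted p = 0.035 at a pseudocount of 1) or no filter (adjusted p = 0.022). It was -0.60, and not called, without replicate 3 of 3D 0 h or without replicate 3 of 2D 0 h. The rise over 24 h in 2D cells, 1.17 ± 0.35 (SE, edgeR's adjusted p = 0.017), was lost without replicate 1 of 2D 0 h, without replicate 2 of 2D 0 h and without replicate 2 of 2D 24 h, at adjusted p of 0.064, 0.055 and 0.063. In spheroids the change of Itga3 over 24 h was -0.32 (95% interval -1.17 to 0.53, edgeR's adjusted p = 0.54).

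The alpha-6 chain binds laminins with beta-1 or with beta-4, the partner it has in epithelial cells. Itga6 (ENSMUSG00000027111) had 5.45, 6.20 and 4.34 CPM in spheroids at 24 h, against 6.53, 9.72 and 7.82 CPM in 2D cells. The 0 h libraries gave 6.63, 3.35 and 6.13 CPM in spheroids, against 8.94, 10.1 and 13.2 CPM in 2D cells. Only the 0 h difference passed, at -1.01 ± 0.27 (SE, edgeR's adjusted p = 0.0055), and it was lost with limma on TPM (adjusted p = 0.12 or 0.13), whose ranges overlapped. The 24 h difference was -0.59 (95% interval -1.16 to -0.02, edgeR's adjusted p = 0.09). The changes over time were -0.00 (95% interval -0.59 to 0.58, edgeR's adjusted p = 1) in spheroids and -0.43 (95% interval -0.98 to 0.13, edgeR's adjusted p = 0.22) in 2D cells.

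**Figure D2:**
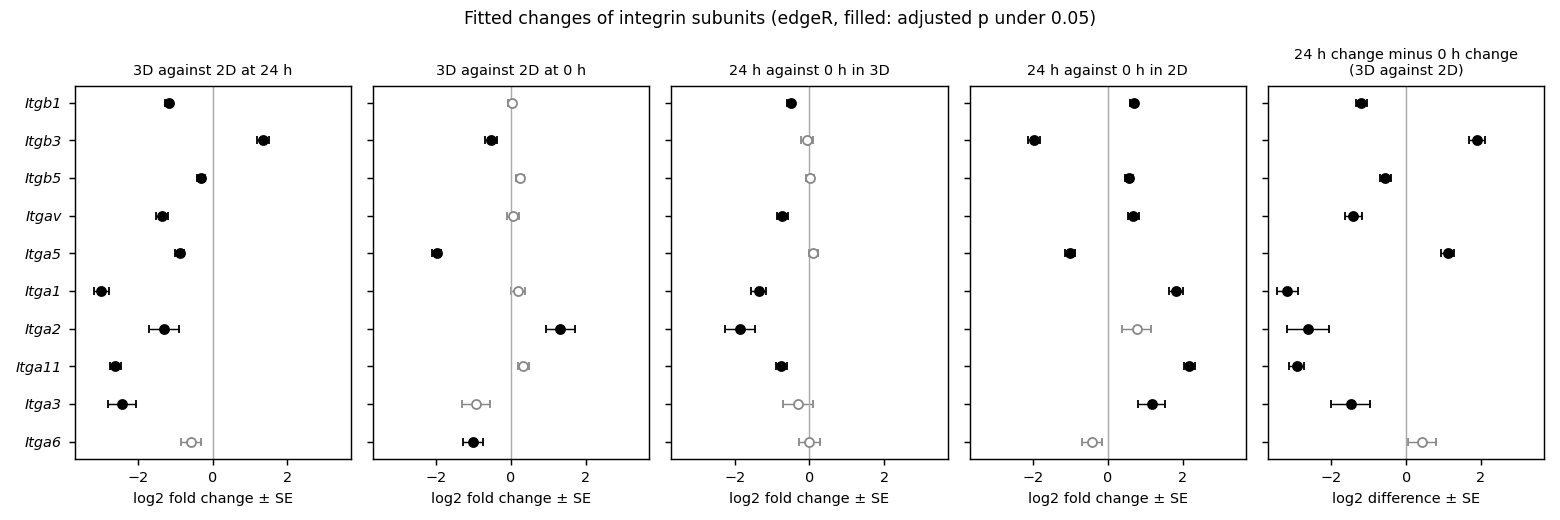
Fitted log2 fold changes of the 10 subunits (points) with SE bars in the 4 comparisons, and in the last panel the 24 h difference minus the 0 h difference; filled points had an edgeR adjusted p under 0.05 and grey open points did not. Itga1, Itga11 and Itga3 lie furthest left at 24 h, between -2.99 and -2.42, and Itgb3 lies right at 1.36.

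Whether the 3D against 2D difference itself shifted over the 24 h was tested with the difference of the 2 changes. It recombines the comparisons above over the same 12 libraries, so it is not separate evidence. Of the 10 subunits, 7 had a lower fold change at 24 h than at 0 h, 2 (Itgb3 and Itga5) a higher one, and 1 (Itga6) did not pass, against 20.5% and 18.7% of all genes. The median shift was -1.30 over the subunits and -0.02 over all genes. The shift was largest for Itga1 at -3.18 ± 0.27 (SE, edgeR's adjusted p = 9.1e-08), Itga11 at -2.94 ± 0.21 (SE, adjusted p = 1.1e-08) and Itga2 at -2.63 ± 0.56 (SE, adjusted p = 0.0011). For Itga5 the shift of 1.11 ± 0.18 (SE, edgeR's adjusted p = 8.6e-05) came with a difference that was negative at both times and smaller at 24 h, whereas for Itgb3 the shift of 1.90 ± 0.22 (SE, adjusted p = 3.8e-06) came with a change of sign. Itga3, at -1.49 ± 0.53 (SE, edgeR's adjusted p = 0.035), lost its call in 10 of 19 alternatives. Among these was leaving out replicate 2 of 3D 0 h (-0.73, adjusted p = 0.26), replicate 3 of 3D 24 h, any 1 of the 2D 24 h libraries, or replicate 1 or 2 of 2D 0 h (adjusted p from 0.051 to 0.099). The shifts of Itgb1, at -1.20 ± 0.14 (SE, edgeR's adjusted p = 3.2e-06), Itgav, at -1.41 ± 0.21 (SE, adjusted p = 5.7e-05), and Itgb5, at -0.56 ± 0.15 (SE, adjusted p = 0.0077), kept their calls in all 19 alternatives, and that of Itga6 was 0.42 (95% interval -0.38 to 1.23, edgeR's adjusted p = 0.41).

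Levels of different subunits can be set against each other only per transcript length, and TPM was used for this. Itgb1 averaged 348 ± 33.2 TPM in spheroids at 24 h and 784 ± 126 TPM in 2D cells (SD, n = 3 each), and 461 ± 28.8 and 417 ± 37.0 TPM in the same cultures at 0 h. Itga5 averaged 282 ± 54.2 TPM in spheroids at 24 h and 509 ± 72.6 TPM in 2D cells, and 246 ± 12.8 and 883 ± 177 TPM at 0 h. Itgb1 and Itga5 were thus the most abundant beta and alpha transcripts of the 10 in every group. The scarce Itga2, Itga3 and Itga6 averaged at most 5.97 TPM in any group. CPM over TPM follows the transcript length the authors' tool estimated, and also the scaling of each library. It varied up to 4.78-fold between libraries for Itga2, 2.42-fold for Itga3 and 1.88-fold for Itga6. The least variation of the 10 was 1.29-fold, for Itgb1. The TPM of these scarce subunits thus also carries shifts in estimated length.

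The ratio of Itga5 to Itgb1 transcripts separated the 2D 0 h libraries from the other 9. It was 0.962, 0.799 and 0.673 in spheroids at 24 h, against 0.662, 0.636 and 0.654 in 2D cells. At 0 h it was 0.509, 0.597 and 0.502 in spheroids, against 2.41, 1.59 and 2.41 in 2D cells. Alpha-5 transcripts outnumbered beta-1 transcripts only in the 2D 0 h libraries, and at 24 h the ratio was the higher one in spheroids, with lowest and highest libraries of the cultures close together. Itga5 made up 80.9% ± 1.13 of the summed TPM of the 7 alpha chains in spheroids at 24 h and 71.4% ± 1.69 in 2D cells, and 71.9% ± 4.46 and 90.6% ± 2.14 at 0 h (SD, n = 3 each). Itga11 made up 3.38% in spheroids at 24 h and 9.88% in 2D cells, and 5.41% and 1.37% at 0 h. Among the beta chains, the ratio of Itgb3 to Itgb5 was 0.0668 ± 0.00496 in spheroids at 24 h and 0.0215 ± 0.00185 in 2D cells, and 0.0730 ± 0.00875 and 0.125 ± 0.0154 at 0 h. Itgb5 therefore exceeded Itgb3 in transcripts in all groups, and most in 2D cells at 24 h.

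**Figure D3:**
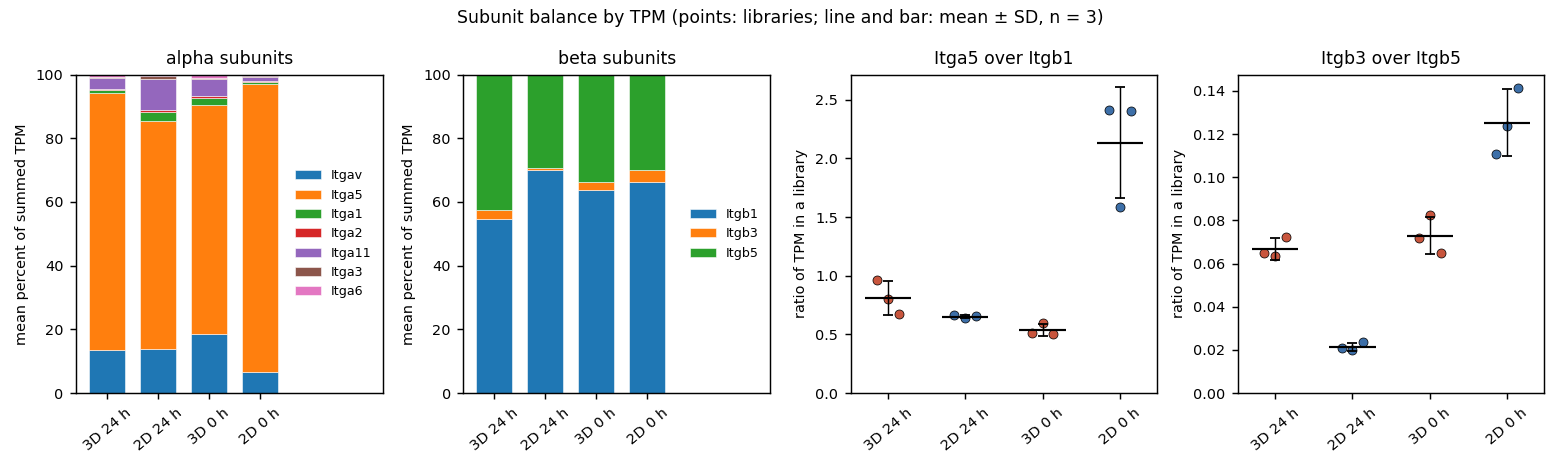
Mean share of each chain in the summed TPM of the 7 alpha or 3 beta subunits by group (percent), and ratios of TPM within a library (points). The Itga5 over Itgb1 ratio is above 1.5 in the 3 libraries of 2D cells at 0 h and below 1 in the other 9.

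Some of the subunits followed each other across the 12 libraries. Since the libraries form 4 groups of 3, a correlation here mostly describes the group levels, and it is given without a test. Itgb1 correlated with Itga1 at r = 0.968, with Itgav at 0.954 and with Itga11 at 0.928, over log2 CPM. Itgb3 ran against Itga11 (r = -0.838), Itgb5 (-0.76), Itga1 (-0.716) and Itgb1 (-0.698). Itga5, the most abundant partner of Itgb1, followed it weakly at r = 0.326 and correlated most with Itga6, at 0.817. Ranked by r with Itgb1 over all tested genes, the nearest were ENSMUSG00000097908 at 0.989 and ENSMUSG00000028780 at 0.984, which the tables used here do not name.

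**Figure D4:**
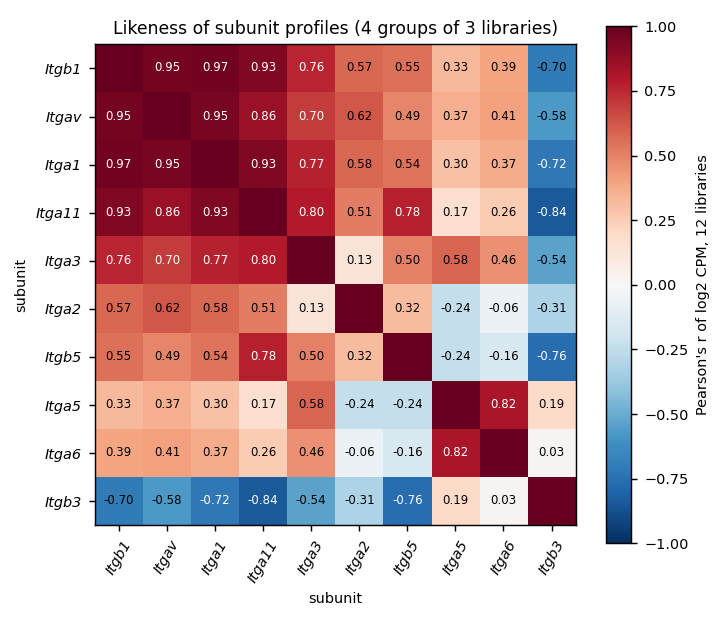
Pearson r of log2 CPM over the 12 libraries between pairs of the 10 subunits. Itgb1, Itgav, Itga1 and Itga11 form a block with r from 0.928 upward where they are paired with Itgb1, and Itgb3 is negative against Itgb1, Itgb5 and Itga11.

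Promoters are shown for 3 of the subunits that moved together (Itgb1, Itga1 and Itga11) and for Itga5, which did not. Each is the 250 bases before the RefSeq start in build GRCm38.p6, which differs from the build of the deposited values. Itgav also moved with Itgb1, and its window, not shown, had a GC content of 64.4% and none of the motifs searched. RefSeq windows matched 8 of the 10 subunits, all but Itgb3 and Itga6. The windows shown are chr8:128685404-128685653 (plus strand) for Itgb1, chr13:115101965-115102214 (minus strand) for Itga1, chr9:62677605-62677854 (plus strand) for Itga11 and chr15:103366792-103367041 (minus strand) for Itga5, each written 5′ to 3′ on the gene's strand with motif matches in capitals.
Itgb1: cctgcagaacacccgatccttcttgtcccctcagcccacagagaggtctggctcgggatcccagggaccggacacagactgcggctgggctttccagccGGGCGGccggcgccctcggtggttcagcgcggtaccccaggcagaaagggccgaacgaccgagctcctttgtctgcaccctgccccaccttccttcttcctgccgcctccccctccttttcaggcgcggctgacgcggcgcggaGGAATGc
Itga1: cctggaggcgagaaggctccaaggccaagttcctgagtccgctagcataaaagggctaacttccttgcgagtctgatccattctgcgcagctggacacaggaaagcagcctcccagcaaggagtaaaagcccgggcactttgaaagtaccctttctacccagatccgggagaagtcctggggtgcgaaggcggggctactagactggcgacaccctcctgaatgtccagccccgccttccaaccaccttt
Itga11: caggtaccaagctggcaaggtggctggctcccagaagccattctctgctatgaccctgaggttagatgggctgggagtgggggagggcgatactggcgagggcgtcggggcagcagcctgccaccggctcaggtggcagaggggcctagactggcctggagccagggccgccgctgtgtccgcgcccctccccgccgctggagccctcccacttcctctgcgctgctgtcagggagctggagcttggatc
Itga5: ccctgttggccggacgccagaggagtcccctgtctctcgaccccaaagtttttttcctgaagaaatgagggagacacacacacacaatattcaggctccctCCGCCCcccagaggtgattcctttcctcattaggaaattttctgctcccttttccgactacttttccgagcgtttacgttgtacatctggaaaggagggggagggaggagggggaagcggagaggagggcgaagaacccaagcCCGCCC
GC content was 68.0% for Itgb1, 57.6% for Itga1, 68.4% for Itga11 and 55.6% for Itga5, where the median over all promoter windows was 52.4%. The motifs searched on both strands were the CArG box (in 1.47% of the 32851 windows), TGANTCA of AP-1 (6.75%), GGAATG of TEAD (12.6%), GGGCGG, the GC box (32.7%), and ACGTG, the hypoxia response core (16.6%). Itgb1 held a GC box and GGAATG, Itga5 held 2 GC boxes on the reverse strand, and the Itga1 and Itga11 windows held none of the motifs. A match is only a description of letters in this window, and the lack of one says nothing about the factor.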

How the data were processed

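RNA was sequenced from 12 libraries, 3 in each of 4 groups, with a low-input RNA kit and a stranded mRNA library kit, per the labels' protocols. Per the submitters' processing notes, the tools were FastQC 0.11.9, STAR and RSEM, with build GRCm39; annotation and other versions are not given in these sources. The deposited values are expected counts, which divide multiply matching reads between genes, and log2 values of TPM with a pseudocount of 1, both made by the authors. Columns named for day 0 and day 1 were read as 0 h and 24 h, and 0 columns were left unassigned.

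Expected counts were rounded and tested with edgeR 4.0.16 in R 4.3.3: expression filter at a minimum count of 10, TMM scaling, and a quasi-likelihood fit over 12 libraries with 1 term per group and 8 residual degrees of freedom. P-values were Benjamini-Hochberg adjusted over 14338 genes. Each SE was derived from the test, as the unshrunk log2 fold change over the square root of the F statistic. The 95% intervals used 16.84 degrees of freedom, which include those edgeR borrows from other genes. TPM was recovered from the deposited log2 values. The procedure was tested on simulated data. Alternatives were DESeq2 1.42.0, limma 3.58.1 on log2(TPM + 1) and log2(TPM + 0.1), other scalings, no filter, a replicate block, only the groups compared, and leaving out each library.

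The members and lists were chosen with earlier results of these data known. The text names all 10 members and the genes most like Itgb1. Lists of other integrin chains, adaptors, ligands and cell type markers were not used, because the gene IDs could not be paired with names in the RefSeq table, whose build is GRCm38.p6. Member names come with the member list.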

Additional observations from a re-analysis of the deposited data

Results flagged for a closer look

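For 9 subunits the fold change of spheroids over 2D cells was not the same at 24 h as at 0 h in edgeR's test of the difference itself (24 h minus 0 h, log2), 2 of them higher and 7 lower, against 18.7% and 20.5% of all tested genes. The difference was -3.18 for Itga1, -2.94 for Itga11 and -2.63 for Itga2, the collagen receptor chains. It was -1.49 for Itga3, whose call was lost in 10 of 19 alternatives, -1.41 for Itgav, -1.20 for Itgb1 and -0.56 for Itgb5. It was 1.90 for Itgb3 and 1.11 for Itga5. Adjusted p-values of these edgeR tests, over 14338 genes, lay between 1.1e-08 and 0.035. What lies behind these shifts was not tested.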

How the results depend on the processing

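Of 35 called values of the subunits, 26 kept call and direction in every alternative and 0 reversed. The number of subunits called at 0 h was 4 and lay between 2 and 5 with 1 library left out, at 2 without replicate 3 of 3D 0 h, where 19.3% of genes were higher and 19.3% lower. At 24 h it was 9 and lay between 8 and 9, where 15% to 21.9% of all genes were higher and 18% to 23.6% lower. For the difference it lay between 8 and 9, against 15.5% to 19.8% of genes higher and 17% to 20.5% lower. Over time in spheroids it was 5 throughout, where 20.3% to 25.2% of genes rose and 19.7% to 25.5% fell. Over time in 2D cells it was 8 and lay between 7 and 9, where 12% to 18% of genes rose and 11.2% to 18.9% fell. With limma on TPM 3 subunits were called over time in spheroids, at either pseudocount, in place of 5, all falling, against 20% (pseudocount 1) and 19.3% (0.1) of genes falling. With replicate number as a block the counts were 9 at 24 h, 4 at 0 h, 5 over time in spheroids and 8 over time in 2D cells. The count was 8 for the difference, where Itga3 lost its call (-1.39, adjusted p = 0.064), and no other call changed. With the block 18.1% of all genes were higher and 21.5% lower at 24 h, and 21.6% and 21.1% at 0 h. The 4 calls at 0 h thus again stood near the share of all genes. Over time 22.4% rose and 23.1% fell in spheroids, and 15.4% and 14.8% in 2D cells. For the difference the shares were 16.8% higher and 19% lower. Deviations of same-numbered libraries from their group means correlated from -0.234 to 0.052, and those of other-numbered libraries from -0.101 to 0.187. The labels state no pairing, and these correlations cannot show whether same-numbered libraries share a culture or a run. Values that reversed were not called. Over time in spheroids Itga6 was 0.0052 with DESeq2, 0.0763 with library totals, 0.0045 with no filter, 0.0047 with the replicate block and 0.0154 with only the groups compared, and -0.2307 to 0.204 with 1 library left out. Itgb3 was 0.0143 with library totals and 0.0144 and 0.0152 with limma, and -0.1693 to 0.0864 with 1 library left out. Over the same libraries Itga3 lay between -0.6504 and 0.4414 and Itga5 between -0.0012 and 0.1833. At 0 h Itgb1 lay between -0.025 and 0.0731 and Itgav between -0.0537 and 0.1326. The cause of these changes was not tested. Library totals shifted the median log2 fold change of all genes to 0.12 at 24 h and at 0 h, with 25.4% of genes higher and 18.9% lower at 24 h. With limma at a pseudocount of 1 the median was 0.17 over time in 2D cells (20.2% rising, 8.77% falling), and -0.10 for the difference. Low counts limit Itga2, Itga3 and Itga6.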
